A study of Mus musculus with 93 samples.

Results

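The oil-exposed cortex at 12 months of age comprised 18 of the 93 libraries of the series, 9 from Chd8 HET mice and 9 from WT mice. They were chosen by their labels, 12 months and oil control, from a table that holds 82 libraries of mice at postnatal day (PND) 5 and 12 months. HET mice carried the V986* allele, a premature stop codon, on 1 of 2 copies of Chd8 in every cell of the body, and WT mice were their littermates. All 18 were males born to WT C57BL/6J dams and Chd8 V986*/+ sires. The dams ate the oil vehicle in peanut butter every 3 days until weaning at PND 22, so neither genotype met deltamethrin (DM), the pyrethroid insecticide tested elsewhere in the study. Each of the 9 litters gave 1 HET and 1 WT mouse, and the RNA of a cortical hemisphere of each was sequenced as a stranded polyA library. Litters D and E were processed in batch 1, H and I in batch 2, K, N and R in batch 3, and S and T in batch 4. The 10 DM litters of the same age, with 20 libraries, served as the nearest comparison. They came from dams of the same cross that ate DM in place of oil.

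CHD8 is an ATP-dependent remodeler that moves nucleosomes and is found at the promoters of many active genes. Loss of a single CHD8 copy in humans causes a form of autism that often includes a large head. In mouse cortex the gene is most active in dividing progenitors and newborn neurons and continues to be expressed in the adult, where its work is less well known.

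The values were variance-stabilized counts on a log2 scale, from which the authors had removed batch, sex, dissector and litter number. Read counts were not part of the table, so the depth of each library is unknown and the 9 pairs set the precision. The removal also shifted the level of each gene: Mag, a myelin gene, lay between −1.31 and 0.55 in HET mice and between −1.23 and 0.58 in WT mice. Levels were therefore not compared between genes, and the presence or absence of a cell type could not be read from them. All 20 excitatory neuron, 26 inhibitory neuron, 24 astrocyte and 30 myelin markers on the lists varied between littermates and entered the tests, as did 16660 of 24528 genes. Littermates shared every removed term, so the difference within a litter, HET minus WT, was the measure used throughout.

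Chd8 itself was lower in the HET mouse of every litter, so no pair went against its genotype labels. HET levels ran over 10.88, 11.52 and 11.89 (lowest, median and highest of 9), against 11.43, 12.06 and 12.59 in WT mice. The groups overlapped in level, but no pair crossed. Levels of different litters also depend on the removed terms, such as batch and litter number. HET minus WT was −0.66 on average in the batch 1 pairs and −0.60 in the pairs of batches 2 to 4. Over all 9 pairs it was −0.61 (SE 0.052, limma adjusted p = 0.00041), which is 0.653 of the WT level. The exact sign-flip permutation test over pairs, two-sided, gave p = 0.00391, the smallest that 9 pairs can give, and p = 0.0156 without batch 1, again the smallest possible. Litter E had the largest deficit (−0.96) and litter D the smallest (−0.37), and both were processed in batch 1.

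Across the transcriptome, 8 of 16660 genes (0.048%) passed the limma test over 9 pairs at an adjusted p under 0.05. Chmp2a, Hmgb2 and Zbtb40 were higher in HET mice, and Chd8, Hmgb3, Usp11, A730017C20Rik and Abca8a were lower. Each of these moved the same way in 9 of 9 litters, and for each the 2 groups of levels overlapped. Without adjustment 3043 genes (18.3%) had a p under 0.05, 1183 of them higher (7.1%) and 1860 lower (11.2%) in HET mice.

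**Figure D1:**
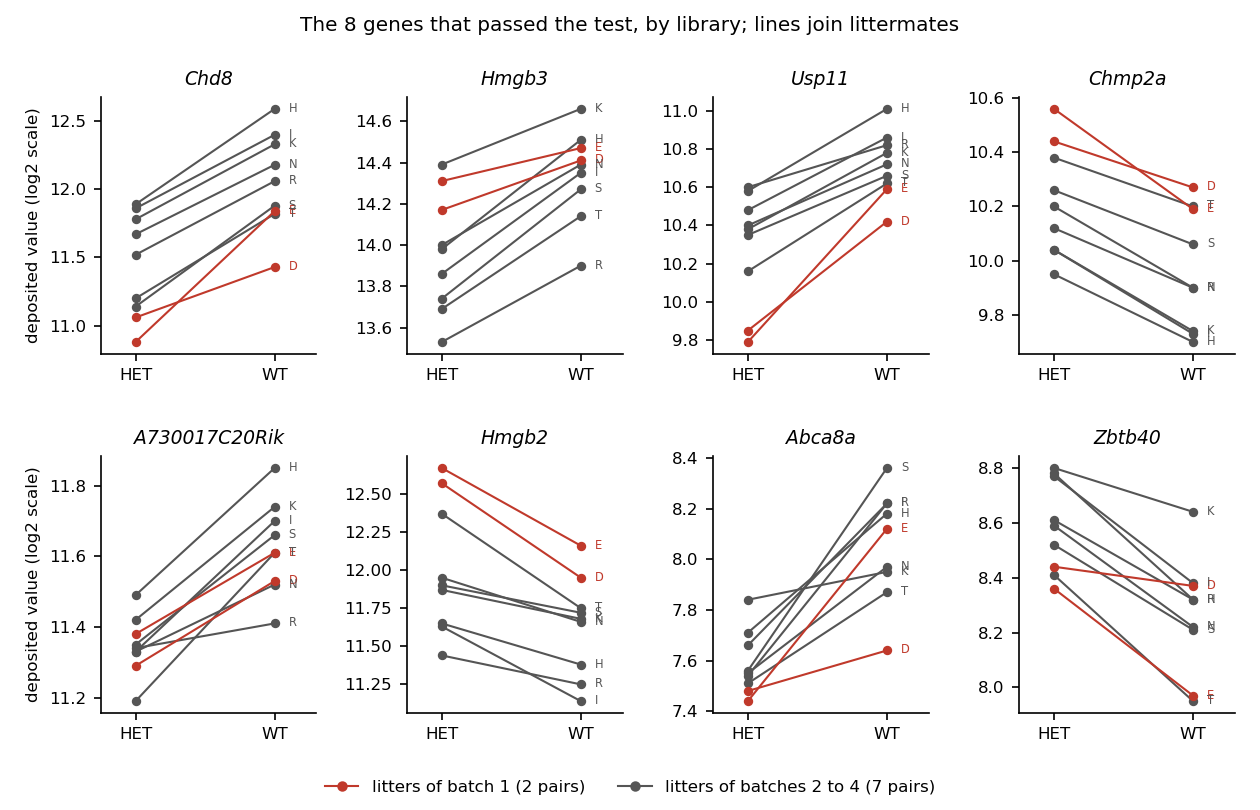
Deposited values (log2 scale) of the 8 genes that passed the test, in HET mice on the left and WT mice on the right of each panel, for 9 litters. Lines join littermates, with batch 1 litters in red and the letter of the litter at the WT end. Every line of a panel slopes the same way, while the height of the lines differs between litters.

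A pair of related genes moved in opposite directions. Hmgb3 and Hmgb2 encode high mobility group box proteins, which bind and bend DNA in chromatin and are most abundant in proliferating cells. Hmgb3 (chromosome X, 71555918 to 71560676 on mm10) was lower. Its levels ran over 13.53, 13.98 and 14.39 in HET mice, against 13.90, 14.39 and 14.66 in WT mice, and HET minus WT was −0.38 (SE 0.044, adjusted p = 0.0093). The deficit ran over −0.23 and −0.16 in batch 1 and between −0.53 and −0.27 in batches 2 to 4, so the batch 1 pairs showed the smallest deficits. That difference between batches passed its own limma test (0.24, SE 0.072, adjusted p = 0.036). Hmgb2 (chromosome 8, 57511907 to 57515999) was higher. Its levels ran over 11.44, 11.90 and 12.67 in HET mice, against 11.14, 11.68 and 12.16 in WT mice, and HET minus WT was 0.37 (SE 0.055, adjusted p = 0.038). The excess was largest in litters D (0.62), T (0.61) and E (0.51) and smallest in K, R and S (0.19 each). Both genes have processed copies elsewhere in the genome, and how the reads were divided among them is not known here.

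The promoters of Hmgb3 and Hmgb2 are shown because these related genes moved in opposite directions and share a repeated element. Capitals mark CCAAT, or ATTGG on the other strand, the box that NF-Y binds. The windows are from RefSeq on GRCm38.p6, run 5′ to 3′ along the gene and span 250 bases before and 50 bases after the start, on the plus strand at chrX:71555667-71555966 for Hmgb3 and chr8:57511593-57511892 for Hmgb2.
Hmgb3: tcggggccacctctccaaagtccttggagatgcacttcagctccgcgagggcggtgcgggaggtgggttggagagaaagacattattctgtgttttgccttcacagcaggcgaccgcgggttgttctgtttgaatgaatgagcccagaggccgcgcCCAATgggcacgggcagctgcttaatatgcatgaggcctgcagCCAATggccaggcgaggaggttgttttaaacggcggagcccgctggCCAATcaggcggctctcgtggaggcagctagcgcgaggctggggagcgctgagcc
Hmgb2: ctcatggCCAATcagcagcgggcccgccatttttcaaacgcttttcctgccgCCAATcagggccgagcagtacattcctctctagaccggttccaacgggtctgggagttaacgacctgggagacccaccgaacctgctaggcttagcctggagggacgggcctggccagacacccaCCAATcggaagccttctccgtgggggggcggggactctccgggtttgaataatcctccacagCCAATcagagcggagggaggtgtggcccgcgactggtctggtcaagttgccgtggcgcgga
Hmgb3 held 3 and Hmgb2 held 4 such boxes, all on the strand of the gene. At least 3 on either strand occurred in 4.6% of the 12742 tested genes with a promoter in the table, and at least 1 in 38.1%. Of the 8 genes, 6 had a promoter in the table, and 4 of these held at least 1. A match describes the letters only.

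Usp11, an X-linked deubiquitinase with a role in DNA repair, was lower in HET mice. It lies on chromosome X, 20703906 to 20720539. Its levels ran over 9.79, 10.38 and 10.60 in HET mice, against 10.42, 10.72 and 11.01 in WT mice. HET minus WT was −0.43 (SE 0.053, adjusted p = 0.010), a level 0.741 of that in WT mice. The pairs of batch 1 differed by −0.57 and −0.80, and those of batches 2 to 4 by −0.46 to −0.22, so here the batch 1 deficits were the largest. The difference between batches was −0.32 (SE 0.080, adjusted p = 0.014), opposite in direction to that of Hmgb3.

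The Usp11 promoter is shown because this gene fell in every litter of both exposures, with CCAAT or ATTGG and CCGGAAG in capitals. CCGGAAG is a core of ETS family binding sites, and both strands were searched (CTTCCGG is its reverse complement). The window lies at chrX:20703659-20703958 on the plus strand of GRCm38.p6 (RefSeq).
Usp11: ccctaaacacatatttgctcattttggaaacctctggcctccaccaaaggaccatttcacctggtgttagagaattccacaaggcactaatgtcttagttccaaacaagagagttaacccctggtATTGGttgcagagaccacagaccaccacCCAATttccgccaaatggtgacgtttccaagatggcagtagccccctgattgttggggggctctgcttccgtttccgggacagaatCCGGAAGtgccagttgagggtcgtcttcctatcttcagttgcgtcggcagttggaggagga
CCGGAAG occurred in 15.3% of tested promoters and in 2 of the 6 genes with one, Usp11 and Chd8. The sites do not overlap the CCAAT matches in Usp11.

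Abca8a showed the largest fold deficit after Chd8. It encodes a lipid transporter of the ABCA family (chromosome 11, 110025634 to 110095978). HET levels ran over 7.44, 7.55 and 7.84, against 7.64, 8.12 and 8.36 in WT mice, and HET minus WT was −0.47 (SE 0.073, adjusted p = 0.046). The pairs spread widely, with −0.79 in litter S and −0.12 in litter K. A730017C20Rik, listed by RefSeq as Minar2, a membrane protein gene (chromosome 18, 59062189 to 59076962), was more even. Its levels ran over 11.19, 11.34 and 11.49 in HET mice, against 11.41, 11.61 and 11.85 in WT mice, and HET minus WT was −0.28 (SE 0.039, adjusted p = 0.024).

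Chmp2a and Zbtb40 were higher in HET mice. Chmp2a (chromosome 7, 13032010 to 13034807) encodes a subunit of ESCRT-III, the complex that pinches membranes off. It ran over 9.95, 10.20 and 10.56 in HET mice, against 9.70, 9.90 and 10.27 in WT mice, and its difference of 0.26 (SE 0.035, adjusted p = 0.022) varied least, between 0.17 and 0.37. Zbtb40 (chromosome 4, 136979732 to 137048801) encodes a zinc finger protein with a BTB domain. It ran over 8.36, 8.59 and 8.80 in HET mice, against 7.95, 8.32 and 8.64 in WT mice, with a difference of 0.32 (SE 0.050, adjusted p = 0.046). Litter D differed by 0.08 only, and litters H and T by 0.46.

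The calls depended on which pairs entered the fit. Leaving out litter H (replicate 3) or litter T (replicate 9), or both pairs of batch 2 or of batch 4, left Chd8 as the single called gene, while 13 genes passed without batch 1 and 24 without batch 3. Over the 24 alternatives Hmgb3 stayed between −0.43 and −0.34, Usp11 between −0.49 and −0.36 and Chmp2a between 0.24 and 0.27. Changes of the filter, the eBayes settings, the pairing or the other libraries in the fit leave these differences as they are. Such settings therefore do not test the size of the differences.

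The genes next in order had adjusted p of 0.065 and above. Among these, Ppm1m (a protein phosphatase) and Nasp (a histone chaperone) were named after their values were seen. Ppm1m ran over 7.90, 8.10 and 8.44 in HET mice, against 7.45, 7.86 and 8.05 in WT mice, with a difference of 0.28 (SE 0.048, adjusted p = 0.090). Nasp ran over 14.23, 14.72 and 15.12 in HET mice, against 14.35, 14.90 and 15.46 in WT mice, with a difference of −0.23 (SE 0.040, adjusted p = 0.090). Both had the same sign in 9 of 9 litters.

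Same-direction pairs were found well beyond the called genes. In 423 genes (2.54%) the HET mouse was higher than its littermate in all 9 litters (117 genes) or lower in all 9 (306 genes). Of these, 24 and 53 also had the same direction in 10 of 10 DM litters, which makes 77 genes with 1 direction in all 19 pairs. Examples chosen after their values were seen are Efna5, an axon guidance ligand, and Ncam1, a neural cell adhesion molecule. Efna5 differed by −0.19 (SE 0.039) in oil pairs and −0.16 in DM pairs. Ncam1 differed by −0.15 (SE 0.039) and −0.11. Neither passed over the 9 oil pairs (adjusted p = 0.097 and 0.15). In 4 genes (0.024%) the 9 HET levels did not overlap the 9 WT levels, Calcrl, Dhx34 and Gm1943 among them, and none of the 4 passed the test. Dhx34, a helicase of RNA surveillance, ran between 7.72 and 7.98 in HET mice, against 7.21 and 7.68 in WT mice.

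A fit that shares its estimate of the spread over the 19 oil and DM pairs leaves the oil differences as they are and called 432 genes (2.59%) in the oil pairs, 131 higher and 301 lower. All 8 genes were among them. Ppm1m, Nasp, Efna5, Ncam1 and Dhx34 passed in that fit, with adjusted p of 0.0097, 0.0097, 0.0092, 0.018 and 0.014.

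Beside Chd8 itself, the genes the study names for genotype included 1 that passed over the 9 oil pairs, Usp11. Egfl6, Parva, Crlf2, Pdgfra and Lyrm7 also passed in oil pairs in the fit of 38 libraries. Their limma adjusted p there were 0.019, 0.024, 0.03, 0.032 and 0.033. Wars2, Ddo, Zbtb45, Apc, Cnp, Mag, Mbp and Olig2 did not pass in that fit (0.051 to 0.55). The study chose the genes it names on libraries that include these, so their directions here are not independent evidence. It also drew on its published data and on mice of other ages, and measured several of the genes by RT-qPCR. Crlf2, a receptor chain for the cytokine TSLP, was 0.58 higher (SE 0.11, adjusted p = 0.096) in 8 of 9 pairs. Its levels ran over 4.84, 5.48 and 5.70 in HET mice, against 4.45, 4.73 and 5.07 in WT mice. Egfl6, a secreted EGF-repeat protein, was higher by 0.38 in 8 of 9 pairs (SE 0.092, adjusted p = 0.13). Parva, an adaptor of focal adhesions, was 0.17 higher (SE 0.046, adjusted p = 0.16), and Lyrm7, an assembly factor of respiratory complex III, was 0.21 higher (SE 0.060, adjusted p = 0.17), both in 9 of 9 litters. Ddo (D-aspartate oxidase) differed by −0.27 (SE 0.13, adjusted p = 0.29) and Zbtb45 by −0.11 (SE 0.068, adjusted p = 0.41). In DM pairs, limma over 38 libraries gave adjusted p of 0.0036 for Egfl6, 0.012 for Parva, 0.03 for Crlf2 and 0.037 for Wars2. It gave 0.043 for Ddo, 0.05 for Lyrm7 and 0.85 for Zbtb45.

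Wars2, the mitochondrial tryptophanyl-tRNA synthetase, differed between the batch 1 pairs and the others. HET minus WT was −0.27 and 0.03 in litters D and E, and between 0.13 and 0.54 in the other 7. The mean over batches 2 to 4 was 0.36 (SE 0.059, adjusted p = 0.065) and over all 9 pairs 0.25 (SE 0.079, adjusted p = 0.17). The batch difference passed (−0.49, SE 0.13, adjusted p = 0.019). Apc, a scaffold that targets β-catenin for destruction, also split by batch. It differed by 0.39 in batch 1 and by 0.07 in batches 2 to 4 (batch difference 0.32, SE 0.069, adjusted p = 0.0063), and by 0.14 over all 9 pairs (SE 0.052, adjusted p = 0.21).

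No gene of the 3 oligodendrocyte lists passed over 9 pairs. Of 30 myelin and mature oligodendrocyte genes, 23 lay lower and 7 higher, 8 had an unadjusted p under 0.05 (all lower), and the median difference was −0.09, beside 0.00 over all tested genes. The medians by litter were −0.17 and −0.15 in batch 1 and between −0.24 and 0.08 in batches 2 to 4, so both signs occurred. In the DM pairs the median of the same list was 0.00. Cnp, an enzyme of myelin membranes, differed by −0.15 (SE 0.064, adjusted p = 0.25), Mag by −0.18 (SE 0.099, adjusted p = 0.35) and Ugt8a, which makes the myelin lipid galactosylceramide and was named after its values were seen, by −0.25 (SE 0.076, adjusted p = 0.17). Of 15 genes of newly formed oligodendrocytes 8 lay higher and 7 lower (median 0.01), and of 17 precursor genes 7 lay higher and 10 lower (median −0.01). Among the precursor genes, Pdgfra differed by −0.15 (SE 0.040, adjusted p = 0.16) and Olig2 by −0.16 (SE 0.065, adjusted p = 0.23). In the test of batch 1 pairs against the others, 4 of the 30 myelin genes passed with a higher difference in batch 1 and none with a lower one. The other 26 did not pass, and the median batch difference of the list was −0.07. Mbp, the myelin basic protein gene, was 1 of the 4. Mbp differed by 0.65 and 0.75 in litters D and E and by −0.42 to 0.20 in the other litters, a batch difference of 0.77 (SE 0.19, adjusted p = 0.012).

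Chd8 was kept out of all gene lists. Over the 9 pairs the 39 lists with tested members held 1 called gene, Usp11 in the list of the study's core genes. Several lists held mostly genes that lay lower. Of 82 high-confidence autism risk genes, 68 lay lower and 14 higher, 27 and 4 of these with an unadjusted p under 0.05, and the median was −0.08. Of 58 clustered protocadherins, cell surface proteins that give neurons their identity, 53 lay lower, 26 of them with an unadjusted p under 0.05, and the median was −0.11. Of 58 voltage-gated ion channel genes, 45 lay lower, 20 of them under 0.05, with a median of −0.11. For all tested genes, 8621 lay lower and 8039 higher. Transcripts of the alpha and gamma clusters share constant exons, so reads may have been divided among these genes. Pcdhb13, a member of the beta cluster named after its values were seen, differed by −0.34 (SE 0.12, adjusted p = 0.19), with −0.89 in batch 1 and −0.19 in batches 2 to 4. Lists in which most genes lay higher included astrocyte markers (22 of 24, median 0.13), cytosolic ribosomal proteins (78 of 79, median 0.12), nuclear-encoded oxidative phosphorylation (68 of 77, median 0.11), mitochondrial ribosomal proteins (66 of 77, median 0.07), the glucocorticoid response (16 of 20, median 0.14) and blood cells (6 of 7, median 0.14). The 8 core genes of the study had a median of 0.19, with 5 higher and 3 lower.

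Among other lists, 36 of 51 synaptic vesicle genes (median −0.08, 19 with an unadjusted p under 0.05 and lower), 44 of 66 postsynaptic genes (−0.08, 20 such), 65 of 96 kinases of neuronal signaling (−0.06, 30 such) and 42 of 62 genes of inherited neurodegenerative disease (−0.05, 17 such) lay lower, as did 51 of 67 splicing factors (−0.06, 19 such). Over all tested genes 11.2% were lower at that threshold. Cytosolic chaperones (median −0.04), the unfolded protein response (−0.04), cholesterol synthesis (−0.04), the proteasome (−0.01), DNA repair (0.02) and microglia (0.03) lay nearer to 0.

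The list medians over 9 pairs were carried to different degrees by batch 1. The 79 cytosolic ribosomal protein genes had medians of 0.74 and 0.71 in litters D and E, and between −0.11 and 0.03 in the 7 other litters. Over batches 2 to 4 the median was −0.05, with 65 of 79 genes lower. Astrocyte markers had medians of 0.53 and 0.50 in litters D and E, and between −0.09 and 0.09 in the others. Oxidative phosphorylation had 0.49 and 0.43, against −0.12 to 0.07, and mitochondrial ribosomal proteins had 0.31 and 0.26, against −0.03 to 0.07. No litter of batches 2 to 4 reached the values of the batch 1 litters in any of these 4 lists.

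Lower lists were split along the same line, though less far. Voltage-gated channels had medians of −0.35 and −0.31 in batch 1, against −0.14 to 0.05 in the other litters, and postsynaptic receptors and scaffolds −0.17 and −0.20, against −0.08 to 0.03. Autism risk genes had −0.27 and −0.17, against −0.13 to 0.03, and protocadherins −0.24 and −0.31, against −0.16 to 0.02. In batches 2 to 4, 63 of 82 autism risk genes and 44 of 58 protocadherins still lay lower, with medians of −0.04 and −0.07, beside −0.01 over all tested genes (9319 of 16660 lower).

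**Figure D2:**
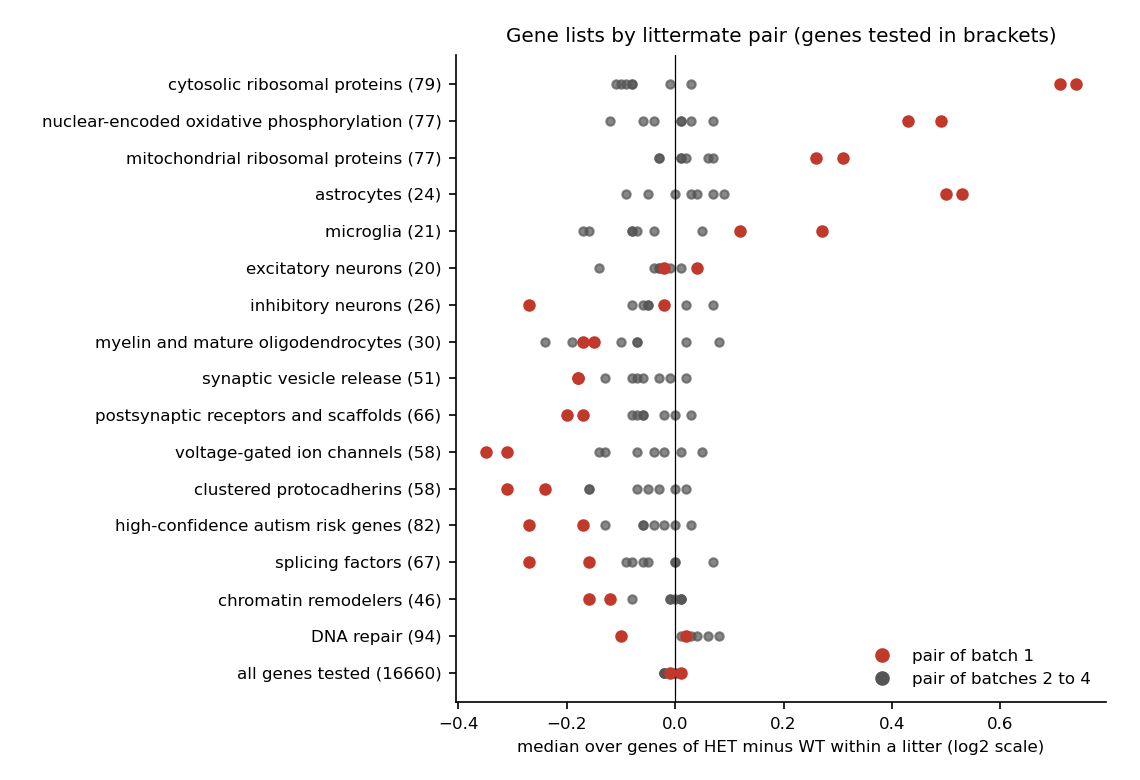
Median over the genes of each list of HET minus WT within a litter (log2 scale), with 1 point per litter. Red points are the 2 batch 1 pairs and grey points the 7 pairs of batches 2 to 4. Ribosomal protein, oxidative phosphorylation and astrocyte lists lie at 0.26 to 0.74 in batch 1 pairs and between −0.12 and 0.09 in the others, while the all-gene medians stay near 0.

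Tested gene by gene, the batch 1 pairs differed from the other pairs in 3813 of 16660 genes (22.9%), 1877 with a higher difference in batch 1 (11.3%) and 1936 with a lower one (11.6%). Of the 79 ribosomal protein genes, 77 were among the higher, as were 59 of 77 oxidative phosphorylation genes, 27 of 77 mitochondrial ribosomal proteins and 18 of 24 astrocyte markers, and none of these 4 lists had a member among the lower. Among the lower were 30 of 58 voltage-gated channels (6 higher), 28 of 66 postsynaptic genes (8 higher), 28 of 82 autism risk genes (5 higher), 24 of 67 splicing factors (1 higher), 19 of 46 chromatin remodelers (5 higher), 19 of 58 protocadherins (none higher) and 15 of 94 DNA repair genes (1 higher). The test compares 2 pairs with 7, and batch cannot be told apart from anything else that litters D and E shared. With litter E alone as batch 1 (litter D left out) 1865 genes passed, and with litter D alone 1776. These fits set 1 pair against 7, so their spread comes from the 7 pairs of batches 2 to 4 alone and the lone pair is assumed to vary like them. With sample weights 596 genes passed, 378 higher and 218 lower.

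The genes with the largest positive batch differences had varied functions. Rn45s, the precursor of ribosomal RNA, differed by 1.40 and 0.74 in litters D and E and between −0.78 and 0.04 elsewhere, a batch difference of 1.32 (SE 0.21, adjusted p = 0.0014). A polyA library holds such RNA only in part. Rpl9, a protein of the large ribosomal subunit with processed copies in the genome, differed by 0.93 and 0.97 in batch 1 and between −0.30 and 0.06 elsewhere (1.06, SE 0.085, adjusted p = 3.8e-05). Xirp1, an actin-binding protein of muscle, followed with 1.20 (SE 0.24), the calcium-binding protein S100a1 with 1.05 (SE 0.12), Wisp2 (Ccn5 in RefSeq), a secreted matrix protein, with 1.04 (SE 0.29) and Fam26f (Calhm6 in RefSeq) with 1.02 (SE 0.22).

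Negative batch differences of similar size were seen as well. Tenm1, a teneurin of synaptic contacts, differed by −1.15 and −1.27 in litters D and E, against −0.29 to 0.22 elsewhere (−1.16, SE 0.11, adjusted p = 8e-05). Lnpep, the insulin-regulated aminopeptidase, differed by −0.98 and −1.57, against −0.28 to 0.16 (−1.23, SE 0.16, adjusted p = 0.00041). Abi3bp, a matrix protein, followed with −1.20 (SE 0.31), the antisense transcript Uckl1os with −1.17 (SE 0.30) and the noncoding transcript Gm4926 with −1.12 (SE 0.21). Uckl1os had 3.17 and 3.18 in the HET mice of D and E, against 3.89 and 4.37 in their WT littermates. Values of 3.19 in the WT mice of H and I and 3.21 in both mice of N lay close by. Its low values may therefore be at the floor of the transformed counts.

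The HET mice of litters D and E had the lowest levels of Tenm1 and Lnpep among all 18 libraries. Ranks across litters also depend on the removed terms, such as batch and litter number. Tenm1 had 10.58 and 9.94 in the HET mice of D and E and 11.38 to 12.86 in the other HET mice, against 11.73 and 11.21 in the WT mice of D and E and 11.39 to 13.14 in the other WT mice. For Rpl9 the HET mice of D and E had the highest values, 13.02 and 13.49, against 12.09 and 12.52 in their WT littermates.

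Among list members named after their values were seen, Cox8a, a subunit of cytochrome c oxidase, had a batch difference of 1.00 (SE 0.11), Camk2a, a kinase of excitatory synapses, 0.75 (SE 0.074), Gria2, an AMPA receptor subunit, −0.82 (SE 0.077), Kcnh7, a potassium channel, −1.08 (SE 0.17), and Scn1a, a sodium channel, −0.70 (SE 0.11), all with adjusted p between 8e-05 and 0.0013. The genes named here lay on both sides, with Camk2a higher and Gria2 lower. Which cells their reads came from is not known, and a part of cell content was not tested. The excitatory neuron list as a whole had medians of −0.02 and 0.04 in litters D and E, with 4 of 20 genes among the higher and 5 among the lower.

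Batch 1 genes differed in length. The longest transcript of the genes with a higher batch 1 difference had a median of 2799 bases, against 5096 bases for those with a lower one and 3302 bases for all tested genes, with a length for 98.3%, 98.4% and 97.8% of each set. Their median GC content was 51.5%, 46.0% and 49.7%. When all genes were divided into 10 groups of equal number by length, the median difference in litter D was 0.28 in the shortest group (median 1049 bases) and −0.26 in the longest (median 8235 bases). In litter E it was 0.25 and −0.17. The 7 other litters lay between −0.03 and 0.05 in the shortest group and between −0.11 and 0.04 in the longest. Litter H, with 0.05 and −0.11, came nearest to the batch 1 litters and litter K, with −0.02 and 0.04, had the opposite slope. Over 10 groups of GC content the litters did not split by batch: the richest group had 0.23 in D and 0.13 in E, 0.19 in H and 0.20 in S, and −0.09 in K and −0.11 in N. The part of transcript length in the batch difference was not tested.

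**Figure D3:**
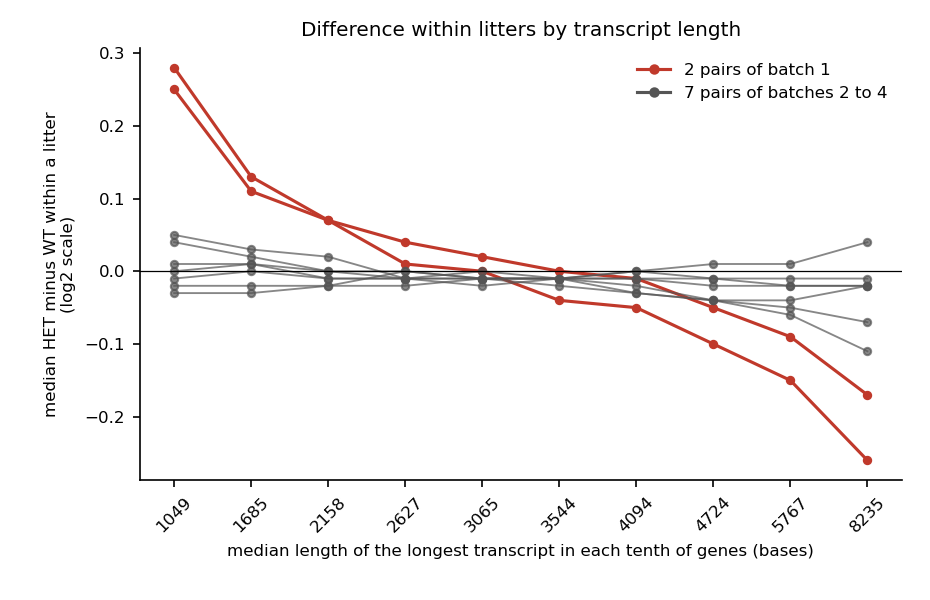
Median HET minus WT within a litter (log2 scale) for 10 groups of the tested genes ordered by the length of their longest transcript, with the median length of each group on the x axis in bases. Lines are litters, red for the 2 of batch 1 and grey for the 7 of batches 2 to 4. The red lines run between 0.28 at the short end and −0.26 at the long end, and the grey lines stay between −0.11 and 0.05.

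Over all tested genes, the differences within litters D and E correlated with r = 0.555, a description across genes, which are not independent. The 21 comparisons among pairs of batches 2 to 4 gave r between −0.0994 and 0.314 (median 0.0651), and the 14 comparisons of a batch 1 pair with another gave −0.0978 to 0.279 (median 0.0625). The SD of the differences over genes was 0.337 in D and 0.350 in E, against 0.217 to 0.260 in the other litters. The 2 batch 1 pairs of DM-exposed mice, litters A and F, had SDs of 0.270 and 0.235. Their ribosomal protein medians were 0.21 and 0.04, against −0.14 to 0.15 in the 8 DM litters of batches 2 to 4, their astrocyte medians 0.16 and 0.13, against −0.09 to 0.23, and their medians in the shortest genes 0.14 and 0.08, against −0.01 to 0.08. Litter A correlated with D and E at r = 0.392 and 0.339, and litter F at 0.191 and 0.143, while the DM litters of batches 2 to 4 ran between −0.0303 and 0.265. Litter F thus lay within the range of the DM litters of batches 2 to 4 in each of these measures. Litter A lay above that range in ribosomal proteins, the shortest genes and the correlations with D and E, and within it in astrocyte markers and SD.

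Without batch 1, 13 genes (0.078%) passed over the 7 pairs of batches 2 to 4, 3 higher and 10 lower. Of the 8 genes, 6 passed again: Chd8, Hmgb3, Usp11, Chmp2a, A730017C20Rik and Zbtb40. Hmgb2 (0.32, SE 0.053, adjusted p = 0.072) and Abca8a (−0.49, SE 0.075, adjusted p = 0.053) kept their sizes and did not pass. The other 7 were genes in which the 7 pairs lay close together. Prmt1, the main asymmetric arginine methyltransferase, differed by −0.18 (SE 0.026, adjusted p = 0.046), with values between −0.23 and −0.10. Smyd5, a lysine methyltransferase, differed by −0.20 (SE 0.029, adjusted p = 0.039), Gng3, a neuronal G protein gamma subunit, by −0.18 (SE 0.027, adjusted p = 0.046) and Arl10, a small GTPase, by −0.20 (SE 0.028, adjusted p = 0.038). Asb1, a ubiquitin ligase adaptor, differed by −0.21 (SE 0.029, adjusted p = 0.039), and Orai2, a subunit of store-operated calcium channels, by −0.23 (SE 0.031, adjusted p = 0.038). 6430706D22Rik, which RefSeq lists as Hjurp, a chaperone of the centromeric histone, was higher by 0.31 (SE 0.040, adjusted p = 0.038).

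In 3 of these 7 genes the batch 1 pairs stood apart, beside 22.9% of all tested genes. The 7 genes were taken because they passed without batch 1 and not with it, so this count is no separate result. Orai2 differed by 0.25 in batch 1 (batch difference 0.48, SE 0.066, adjusted p = 0.00054), Asb1 by 0.01 (0.22, SE 0.062, adjusted p = 0.025) and 6430706D22Rik by −0.05 (−0.36, SE 0.095, adjusted p = 0.019). Leaving out 1 more pair of the 7 gave 3 to 5 called genes.

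The DM pairs share batches but no library with the oil pairs. HET mice of DM litters differed from their WT littermates in 759 genes (4.56%), 366 higher and 393 lower, by limma over 38 libraries. All 8 genes had the same direction after DM, and 7 passed there. That fit shares the spread of each gene over oil and DM pairs, so its adjusted p in DM pairs are not independent of the oil pairs. HET minus WT in DM pairs was −0.69 for Chd8, −0.47 for Hmgb3, −0.41 for Usp11, −0.48 for Abca8a, −0.32 for A730017C20Rik, 0.22 for Chmp2a and 0.27 for Zbtb40, each in 10 of 10 litters. Hmgb2 differed by 0.19 (SE 0.060, adjusted p = 0.070), with 8 of 10 litters higher and values between −0.07 and 0.63. Of the 7 genes called in batches 2 to 4 alone, all had the same direction in DM pairs, 6 passed, and Arl10 did not (−0.05, SE 0.062, adjusted p = 0.65).

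**Figure D4:**
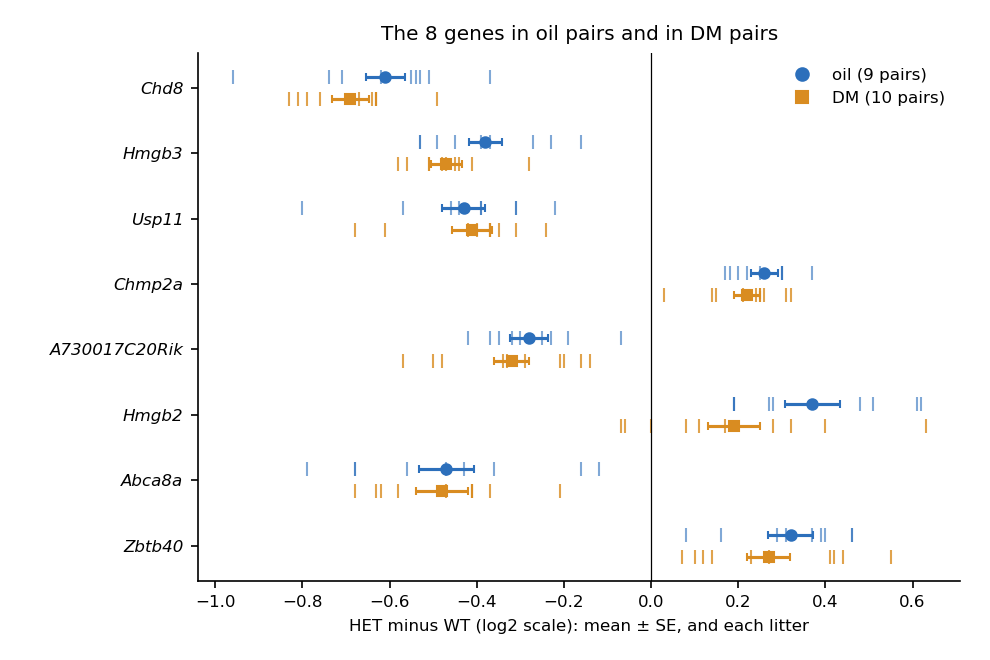
HET minus WT (log2 scale) of the 8 genes in 9 oil pairs (circles, above) and 10 DM pairs (squares, below). Large symbols with bars give the mean ± SE from the fit of 38 libraries, and thin ticks the litters. Oil and DM means lie on the same side of 0 for each gene, and the ticks of both exposures overlap.

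Over all tested genes, 72.2% had the same sign in oil and DM pairs, and r across genes was 0.55 for the 9 pairs and 0.433 for the 7 of batches 2 to 4. Of the 432 genes called in oil pairs in the fit of 38 libraries, 419 (97%) had the same sign and 173 (40%) also passed in DM pairs. The difference between the oil and DM effects of genotype was tested directly: limma called 0 genes, against 622 at an unadjusted p under 0.05, and 0 under each of 5 alternatives. A p that misses the threshold does not show that the effects were equal.

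Markers of neighboring tissue differed within single litters. Ttr, the transthyretin gene of choroid plexus, had 1.00 in the HET and 7.87 in the WT mouse of litter D, and 0.24 in the HET and 8.10 in the WT mouse of litter I. In the other 7 litters it lay between 1.08 and 4.27 in HET mice and between 0.36 and 2.77 in WT mice. The 17 choroid plexus genes had medians of −1.54 in D and −1.57 in I, and between −0.10 and 0.24 elsewhere. The mean level over this list ran between 4.87 and 5.21 in HET mice and between 4.88 and 6.61 in WT mice. Without litters D and I, a choice made after the data were seen, Chd8 alone passed over the 7 remaining pairs, and the differences of the other 7 genes were −0.49 to 0.35. Choroid plexus markers did not follow the batch 1 split, since litter E had a median of 0.10.

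Blood and vessel markers stood out in litter T, where the HET mouse had 8.30 for Hba-a1 (hemoglobin alpha) and 10.82 for Vwf (von Willebrand factor), against 6.08 and 9.24 in its WT littermate. The 7 blood genes tested had a median of 1.98 in T and between −0.74 and 0.71 elsewhere, 26 endothelial genes 0.29 against −0.05 to 0.08, and 20 glucocorticoid response genes 0.52 against −0.23 to 0.18. Hmgb2 was among the genes with a large difference in this litter (0.61), and the part of these markers in it was not tested. Over 9 pairs the median of the 26 endothelial genes was 0.02, and 16 of them lay higher and 10 lower. Cldn5, a tight junction protein of endothelial cells named after its values were seen, was higher by 0.25 (SE 0.046, adjusted p = 0.090) in 8 of 9 litters.

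Immediate early genes, which neurons induce within minutes of activity, varied by litter with no common direction. The medians of 34 genes ran between −0.62 in E and 0.58 in N. Fos had 5.67 in the HET and 2.89 in the WT mouse of litter N, and Arc 3.12 and 0.90, the lowest WT values of either gene. In litter E, Fos had 4.16 in the HET and 5.74 in the WT mouse.

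**Figure D5:**
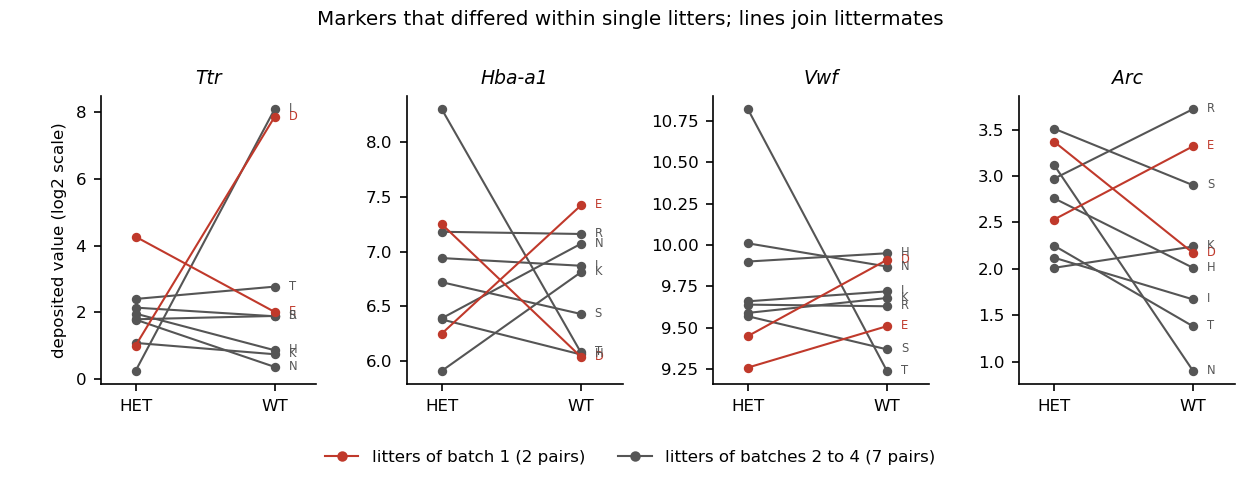
Deposited values (log2 scale) of Ttr (choroid plexus), Hba-a1 (blood), Vwf (endothelium) and Arc (immediate early gene) in HET mice on the left and WT mice on the right of each panel. Lines join littermates, with batch 1 litters in red. Ttr is near 8 in the WT mice of litters D and I, and Hba-a1 and Vwf are highest in the HET mouse of litter T.

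The astrocyte list had a median of 0.52 over the batch 1 pairs, 0.01 over batches 2 to 4 and 0.10 over the DM pairs. Aldh1l1, an astrocyte enzyme of folate metabolism, Gfap, an intermediate filament protein, and S100b, a calcium-binding protein, were named after their values were seen. Aldh1l1 was higher in 9 of 9 oil litters and 10 of 10 DM litters, by 0.20 (SE 0.059, adjusted p = 0.17) in oil pairs and 0.22 in DM pairs (SE 0.045, adjusted p = 0.0099). In batches 2 to 4 it was 0.10 higher (SE 0.029, adjusted p = 0.18), with values between 0.03 and 0.19, against 0.54 in batch 1 (difference 0.44, SE 0.060, adjusted p = 0.00051). Gfap was 0.65 higher in batch 1 and 0.13 in batches 2 to 4 (difference 0.51, SE 0.11, adjusted p = 0.0073), and S100b 0.84 and 0.00 (difference 0.84, SE 0.15, adjusted p = 0.0026). Mean astrocyte levels ran between 7.47 and 8.54 in HET mice and between 7.40 and 8.15 in WT mice. In tissue RNA, more cells of a type and more RNA per cell cannot be told apart.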

How the data were processed

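Cortex RNA of 18 oil-exposed males of 12 months (9 Chd8 HET, 9 WT) was compared, with 20 DM-exposed mice beside them. The authors used cutadapt 1.12 to trim reads, STAR 2.5.2b for alignment (mm10), Salmon to quantify and DESeq2 for the variance-stabilizing transformation, and removed batch, sex, dissector and litter number. The deposited values are on a log2 scale, with no read counts, and 0 columns of the table lacked a sample. A table of 11 mice of 18 months was not used here.

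In R 4.3.3, limma 3.58.1 (eBayes with intensity trend, statmod 1.5.0 for sample weights) fitted each gene with litter as a factor, two-sided, and genes were called under 0.05 after Benjamini-Hochberg adjustment over every tested gene. The labels give each litter 1 mouse of either genotype, which pairs the libraries, and the pairs are separate animals. Genes were tested if at most 1 of 9 pairs was tied (within 2e-04). The same fit was made for the 7 pairs of batches 2 to 4, for batch 1 pairs minus the others (on pair differences) and for 38 libraries with the oil minus DM contrast. Fits were tested on simulated data. Figures used Python 3.11.15 with matplotlib 3.10.9. Positions are from GENCODE M21 and promoters from RefSeq.

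Genes are named if called (up to 12 per direction, with the same sign in at least 8 pairs), if a called list member, if the paper names them for genotype, or if among the 6 largest batch 1 differences per direction. The genes, the 40 lists and the rules were chosen with earlier results of these data known. Genes called in batches 2 to 4 were named as well, and other names are marked. Not every gene that the rule takes is reported here. Alternatives were filters, normalizations, eBayes settings, sample weights, the pairing, other sets of libraries and leaving out each batch or pair.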

Additional observations from a re-analysis of the deposited data

Results flagged for a closer look

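Batch 1 pairs differed from the pairs of batches 2 to 4 in 3813 genes by limma on pair differences, with adjusted p under 0.05. The difference, batch 1 minus others on the log2 scale, was 1.32 for Rn45s, 1.20 for Xirp1, 1.06 for Rpl9, 1.05 for S100a1, 1.04 for Wisp2 and 1.02 for Fam26f. It was −1.23 for Lnpep, −1.20 for Abi3bp, −1.17 for Uckl1os (with low values that may be at the floor), −1.16 for Tenm1 and −1.12 for Gm4926. Among genes called over 9 pairs it was 0.24 for Hmgb3 and −0.32 for Usp11, and among genes the study names it was −0.49 for Wars2, 0.32 for Apc and 0.77 for Mbp. Batch 1 and anything else that litters D and E shared cannot be told apart.

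Of 101 sets of 9 pair differences, 9 held a litter far from the other 8 by Dixon's test, and chance flags about 1 in 20. Litter T stood apart in Vwf (1.57) and in the medians of endothelial markers (0.29) and cholesterol synthesis (−0.21). Litter E stood apart in Arl10 (−0.59), Parva (0.44) and the inhibitory neuron median (−0.27). Litter N stood apart in Fos (2.78) and the excitatory neuron median (−0.14), and litter D in the DNA repair median (−0.10).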

How the results depend on the processing

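The count of 8 genes over 9 pairs changed with the setting, and the cause was not tested. It was 5 with no filter on low values, 51 with sample weights, 432 in the fit of 38 libraries and 272 in that of 82 libraries with no replicate block. Without the pairing (no replicate block) 46 genes passed over 9 pairs and 26 over 7 pairs. It was 13 without batch 1, 1 without batch 2, 24 without batch 3, 1 without batch 4 and 1 without litters D and I (added after seeing the data). Leaving out 1 pair gave 1 to 13 genes, the least without litter H or T and the most without litter D. Other settings gave 7 to 9, though not always of the same genes. With no intensity trend 7 passed, 4 higher and 3 lower, and only 4 of these were among the 8. The 13 genes of batches 2 to 4 became 5 with no filter, 21 at a mean value of at least 6, 7 with quantile normalization and 5 with no intensity trend, and 3 to 5 with 1 pair left out. The 3813 genes of the batch 1 difference became 596 with sample weights and 1776 to 3788 with 1 pair left out, the least without litter E or D. Chd8 passed in all 24 alternatives, Hmgb3 and Usp11 in 19, A730017C20Rik in 15, Chmp2a in 14, Abca8a in 10, and Hmgb2 and Zbtb40 in 9. Their signs never changed, but 9 of 9 pairs shared the sign, so leaving out pairs or changing the filter could not reverse it. The oil minus DM contrast gave 0 in each of 5 alternatives. With no read counts, limits from depth are unknown.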
